A study of Mus musculus with 9 samples.

Results

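The Gli transcription factors carry the Shh signal to its target genes, and a small set of intracellular proteins decides how much Gli protein is made into an activator, cut into a repressor or destroyed. The genes described here are Gli1, Gli2 and Gli3 and 7 listed regulators of Gli protein, Sufu, Kif7, Spop, Stk36, Btrc, Prkaca and Gpr161. They were found by their exact symbols in the deposited tables, where 10 of 10 were present among 38197 gene symbols, and all 10 passed the filter on low counts that left 14742 genes for testing.

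The cells were wild type mouse ESCs of strain 129, grown in monolayer and directed towards ventral hindbrain NSCs with RA (retinoic acid) and the Smo agonist SAG, both given from 0 to 3 days in differentiation conditions (DDC) by the labels and removed slightly later by the study's methods. NSCs were isolated with beads against prominin-1 at 4.5DDC, 5.5DDC and 6.5DDC, after the agonist had been removed, and 3 libraries of polyadenylated RNA were sequenced per time point, 9 in all. All groups share genotype and treatment and differ in time, and the labels name no untreated culture and do not say whether the replicates were separate cultures, so p-values measure the spread between these libraries. One label field gives the times as 4, 5 and 6 days, and the half-day times of the sample titles are used. The libraries held 17820600, 11244489 and 14390493 counts at 4.5DDC, 25506192, 11573528 and 11066572 counts at 5.5DDC, and 12851795, 16479971 and 15913820 counts at 6.5DDC. Levels are FPKM, in which reads are scaled to transcript length and library depth so that genes can be compared, and changes were tested on counts.

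Neural progenitor genes were present in every library, with Vim, an intermediate filament gene of progenitors, the most abundant at between 1235 and 2455 FPKM. Prom1, which encodes the protein used for the sort, rose from 79.1 ± 14.3 to 183 ± 27.2 FPKM (SD, n = 3) between 4.5DDC and 6.5DDC. Replicate 1 stood apart from replicates 2 and 3 at each time point. On the second principal component, which held 27.2% of the variance, replicate 1 lay at 23.9, 54.5 and 49.3 and the other libraries lay between −44.6 and −3.12. Calls of the 10 genes that change without replicate 1 are given both ways.

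Without Shh, Ptch1 keeps Smo inactive, Gpr161 keeps cAMP high in the primary cilium, and PKA phosphorylates Gli2 and Gli3 with the help of GSK3 and CK1. The ubiquitin ligase adaptor Btrc then binds the phosphorylated proteins, and the proteasome trims Gli3 to a repressor and mostly degrades Gli2. Sufu holds Gli proteins in the cytoplasm and stabilises them, Kif7 organises them at the tip of the cilium, and Spop brings Gli2 and Gli3 that have left Sufu to a Cul3 ubiquitin ligase. In the ventral neural tube high Gli activity is needed for floor plate and for the Nkx2.2+ progenitors beside it.

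Between 4.5DDC and 6.5DDC, 6 of the 10 genes changed, and the regulators did not move as a group. Gli1, Gli2 and Gli3 all fell, to between 11.7% and 19.3% of their level at 4.5DDC in FPKM. Of the regulators 3 rose, Stk36, Btrc and Spop, to between 150% and 185% in FPKM, of which Spop passed in 9 of 21 alternatives. The other 4, Sufu, Kif7, Prkaca and Gpr161, had log2 fold changes below 0 and did not pass the test. Among all genes tested 9.53% were called lower and 9.21% were called higher over this span at an adjusted p under 0.05, beside 3 of 10 members in each direction. In the fit without a replicate block none of the 10 was called in the shorter intervals, in which 0.0136% of genes were called lower and 0.0611% higher from 4.5DDC to 5.5DDC, and 0.197% lower and 0.0271% higher from 5.5DDC to 6.5DDC. At an unadjusted p under 0.05, 5 members and 2275 genes passed in the first interval and 4 members and 2733 genes in the second, and DESeq2 called 4 members and 495 genes in the first and 1 member and 671 genes in the second. With the replicate number as a block, Gli3 was called lower and Stk36 higher in the first interval, among 25 genes lower and 187 higher. In the second interval the block turned the balance of all calls from 29 lower and 4 higher to 79 lower and 116 higher.

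**Figure D1:**
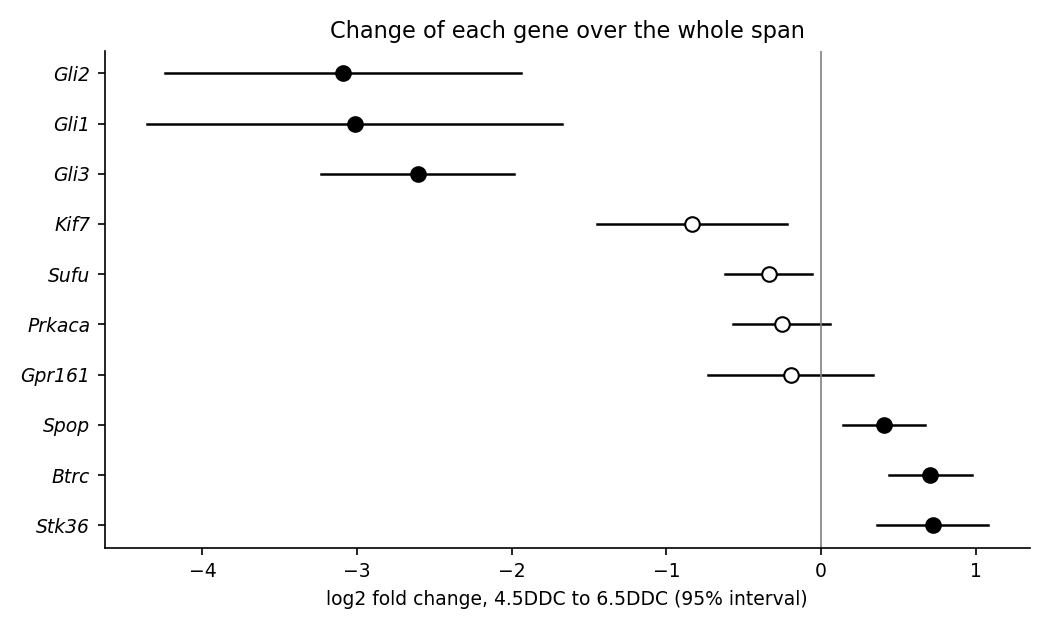
Log2 fold change from 4.5DDC to 6.5DDC (x axis) of each of the 10 genes, from 1 fit of 9 libraries, with the 95% interval as a bar. Filled points passed an adjusted p of 0.05. Gli2, Gli1 and Gli3 lie between −3.09 and −2.61, and the filled points of Spop, Btrc and Stk36 lie between 0.40 and 0.72.

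Gli1 is an activator without a repressor form and is itself switched on by Shh signalling. It stood at 2.34, 8.77 and 3.29 FPKM in replicates 1, 2 and 3 of 4.5DDC, at 0.92, 1.85 and 1.72 FPKM at 5.5DDC, and at 0.224, 0.55 and 0.915 FPKM at 6.5DDC. Replicate 2 of 4.5DDC was the highest library by a wide margin, and the 3 time points did not overlap in FPKM. In CPM, counts scaled to the library total with the TMM factor, the values at 5.5DDC and 6.5DDC did overlap. Over the whole span Gli1 fell by 3.02 in log2 units (standard error 0.60, adjusted p = 0.00985, edgeR's quasi-likelihood test, Benjamini-Hochberg adjusted). On log2(FPKM + 1) the fall was 1.76, where the added 1 is above each level at 6.5DDC and makes the fall smaller. Without replicate 2 of 4.5DDC it was 2.31, with an adjusted p of 0.0349 from edgeR's quasi-likelihood test, Benjamini-Hochberg adjusted.

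Gli2 is the main activator of the pathway in the ventral neural tube and the first to respond to Smo. It was the lowest of the 3 at each time point by its mean, with 1.09, 1.64 and 0.532 FPKM at 4.5DDC, 0.777, 0.389 and 0.413 FPKM at 5.5DDC, and 0.198, 0.075 and 0.258 FPKM at 6.5DDC. In FPKM the first 2 time points shared part of their range, and the last lay below both. In CPM each time point lay below the one before without overlap. It rested on few reads at 6.5DDC, with 10, 9 and 23 counts in the 3 libraries. Gli2 fell by 3.09 over the span (standard error 0.52, adjusted p = 0.00499, edgeR's quasi-likelihood test, Benjamini-Hochberg adjusted). FPKM per CPM of Gli2 lay between 0.111 and 0.158 at 4.5DDC, between 0.131 and 0.271 at 5.5DDC and between 0.136 and 0.241 at 6.5DDC. The fall over the span is therefore smaller in FPKM, to 16.3% of the start against 11.6% in CPM.

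Gli3 is the main repressor of the family and the member most efficiently cut to a repressor. It was the most even of the 3, with 3.32, 3.06 and 3.4 FPKM at 4.5DDC, 1.44, 1.34 and 1.54 FPKM at 5.5DDC, and 0.897, 0.672 and 0.32 FPKM at 6.5DDC. The 3 time points were fully separate and in falling order, in FPKM and in CPM. Gli3 fell by 2.61 (standard error 0.28, adjusted p = 0.00107, edgeR's quasi-likelihood test, Benjamini-Hochberg adjusted), or by 1.40 on log2(FPKM + 1). The added 1 is again above each level at 6.5DDC, which makes the fall on that scale smaller. With the replicate number as a block, a fall of 1.41 from 4.5DDC to 5.5DDC passed as well (adjusted p = 0.0407, against 0.123 without the block, edgeR's quasi-likelihood test, Benjamini-Hochberg adjusted).

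**Figure D2:**
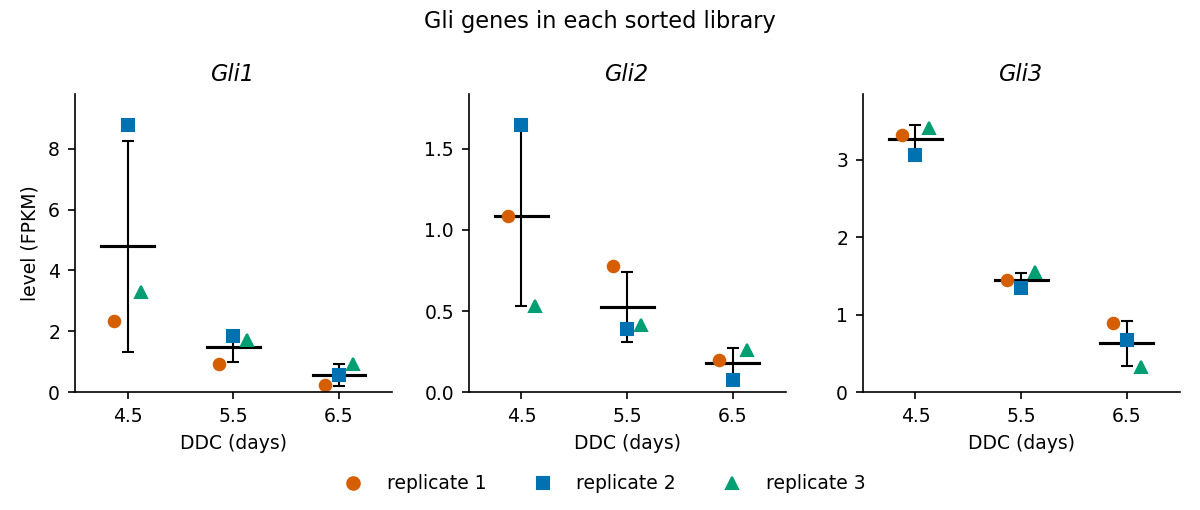
Level in FPKM (y axis) of Gli1, Gli2 and Gli3 at 4.5, 5.5 and 6.5DDC (x axis), with 1 point per library, coloured by replicate, and the mean with SD in black (n = 3). Gli3 is tight at 4.5DDC, between 3.06 and 3.4 FPKM, and Gli1 is spread, between 2.34 and 8.77 FPKM.

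The Gli genes fell together. Gli2 held the smallest share of their sum in each library, while the order of Gli1 and Gli3 was not steady. The summed level of the 3 Gli genes was 9.15 ± 3.75 FPKM at 4.5DDC, 3.47 ± 0.288 at 5.5DDC and 1.37 ± 0.108 at 6.5DDC (SD, n = 3). Gli3 made up 49.2%, 22.7% and 47.1% of that sum in replicates 1, 2 and 3 of 4.5DDC and 68.1%, 51.8% and 21.5% in those of 6.5DDC. The shares of the time points overlapped, and the spread at 6.5DDC was larger than the difference between the means of 39.7% and 47.1%.

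Sufu, the cytoplasmic inhibitor that binds every Gli protein, was measured at 17.8, 20.4 and 15.8 FPKM at 4.5DDC, 17.4, 17.4 and 18.2 FPKM at 5.5DDC, and 14.8, 12 and 13.5 FPKM at 6.5DDC. Its values at the last time point were below all the others. The log2 fold change over the span was −0.34 (95% interval −0.62 to −0.06), which missed the threshold (adjusted p = 0.0884, edgeR's quasi-likelihood test, Benjamini-Hochberg adjusted). The level relative to Sufu in the same library compares a Gli gene with its binding partner, and the scaling to library depth cancels in it. Other differences between FPKM and CPM do not cancel, since FPKM per CPM varied between libraries by gene. At 6.5DDC it lay between 0.1363 and 0.2412 for Gli2 and between 0.09305 and 0.1352 for Gli3. For Gli1 it lay between 0.1955 and 0.2099, and for Sufu between 0.1806 and 0.1939. Gli3 went from 18.4% ± 3.27 of the Sufu level at 4.5DDC to 8.16% ± 0.389 at 5.5DDC and 4.67% ± 2 at 6.5DDC (SD, n = 3). Gli1 went from 25.7% ± 15.5 to 4.29% ± 2.65 and Gli2 from 5.85% ± 2.36 to 1.29% ± 0.646 between the first and the last time point.

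Each of these 3 ratios was compared over the 3 time points with a two-sided exact permutation test of the log2 ratio over 1680 assignments of the libraries, in which the smallest possible p is 0.00357. Gli3 gave that smallest p of 0.00357 in the exact test, or 0.0107 after Benjamini-Hochberg adjustment over the 3 ratios. Gli1 gave p = 0.0107 and Gli2 gave p = 0.0143 in the exact permutation test, both 0.0143 after that adjustment. The mean log2 ratio fell by 2.66 for Gli1, by 2.24 for Gli2 and by 2.08 for Gli3 over the span, so the Gli genes fell further than Sufu did. Without replicate 2 of 4.5DDC the ratio of Gli1 fell by 2.2 and that of Gli2 fell by 1.96, each with an adjusted p of 0.05 in the exact test, and without replicate 2 of 6.5DDC that of Gli2 fell by 1.78, with an adjusted p of 0.0536 in the exact test. Leaving replicate 1 out of all time points leaves too few libraries for this exact test to pass, and the adjusted p of each ratio was then 0.0667.

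**Figure D3:**
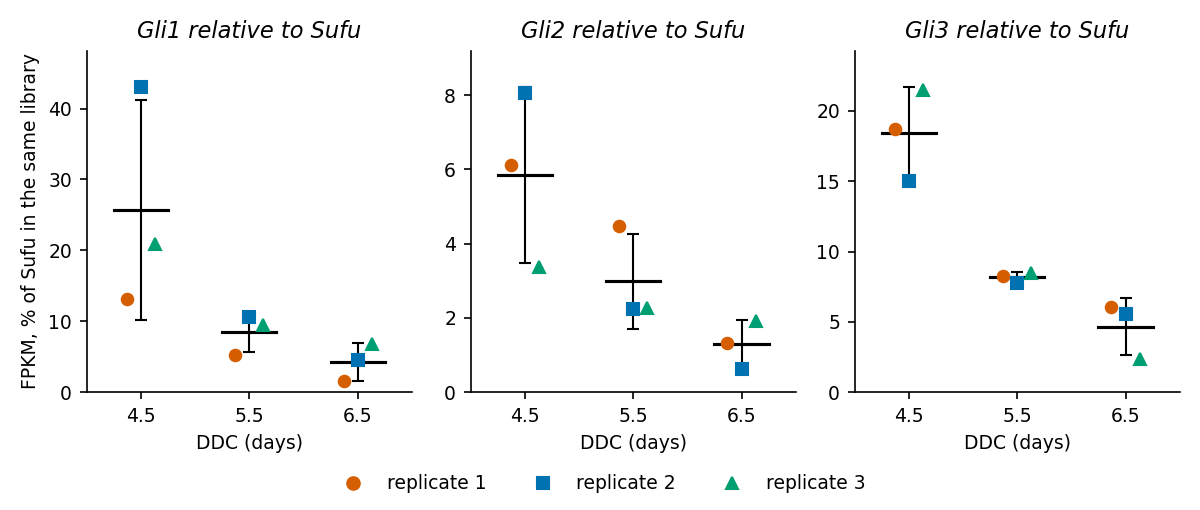
Level of Gli1, Gli2 and Gli3 as a percentage of the Sufu level (FPKM, y axis) in the same library, at 4.5, 5.5 and 6.5DDC (x axis). Points are libraries, coloured by replicate, and black marks are the mean with SD (n = 3). Gli3 goes from a mean of 18.4% to 4.67%.

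Kif7, the ciliary kinesin that both restrains and promotes Gli activity, was measured at 3.75, 5.31 and 2.53 FPKM at 4.5DDC, 4.96, 3.39 and 3.75 FPKM at 5.5DDC, and 2.19, 1.62 and 2.65 FPKM at 6.5DDC. The highest library of 6.5DDC reached above the lowest of 4.5DDC in FPKM. The log2 fold change over the span was −0.83 (95% interval −1.45 to −0.22, adjusted p = 0.0605, edgeR's quasi-likelihood test, Benjamini-Hochberg adjusted), and the call depended on the fit. It passed with DESeq2 (adjusted p = 0.0253) and, with edgeR's quasi-likelihood test, Benjamini-Hochberg adjusted, without replicate 3 of 4.5DDC (adjusted p = 0.0339) or when replicate 1 was given a block of its own (adjusted p = 0.037). Kif7 lies on the strand opposite to Ticrr and 9330171B17Rik, which cover 20.3% of its exonic bases, and the sources used here do not say whether the counting used strand. Ticrr, a DNA replication gene, fell by 1.55 over the span, and its part in the Kif7 values was not tested.

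Gpr161, a ciliary receptor that keeps cAMP high, and Prkaca, the catalytic subunit of PKA, act together upstream of Gli cleavage. Gpr161 was measured at between 5.72 and 7.5 FPKM at 4.5DDC, between 5.07 and 8.32 at 5.5DDC and between 4.5 and 6.86 at 6.5DDC, and the time points overlapped. Its log2 fold change over the span was −0.20 (95% interval −0.73 to 0.34, adjusted p = 0.591, edgeR's quasi-likelihood test, Benjamini-Hochberg adjusted). Replicate 1 held the lowest Gpr161 value at each time point. Prkaca was measured at between 60 and 67.8 FPKM at 4.5DDC, between 50.6 and 68 at 5.5DDC and between 48.4 and 56.4 at 6.5DDC. The last time point lay below the first, while the log2 fold change of −0.26 did not pass (95% interval −0.57 to 0.06, adjusted p = 0.223, edgeR's quasi-likelihood test, Benjamini-Hochberg adjusted).

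Stk36, a serine-threonine kinase related to Drosophila Fused and required for motile cilia in mice, was measured at 11.7, 9.51 and 10.8 FPKM at 4.5DDC, 15.1, 15 and 15.6 FPKM at 5.5DDC, and 22.9, 20.6 and 15.8 FPKM at 6.5DDC. Both later time points lay above the first. Whether Stk36 acts on Gli protein in these cells was not tested. Stk36 rose by 0.72 on the log2 scale over the span (standard error 0.16, adjusted p = 0.0149, edgeR's quasi-likelihood test, Benjamini-Hochberg adjusted), and without replicate 2 of 4.5DDC the value was 0.67, with an adjusted p of 0.0609. From 4.5DDC to 5.5DDC the log2 fold change was 0.83, which did not pass without the replicate block (adjusted p = 0.127, edgeR's quasi-likelihood test, Benjamini-Hochberg adjusted) and passed with it (adjusted p = 0.0382) and without replicate 1 of all time points (adjusted p = 0.0401).

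The second interval of Stk36 depends on the unit. Between 5.5DDC and 6.5DDC it moved by a log2 fold change of −0.11 on counts and 0.34 on log2(FPKM + 1), and neither passed. FPKM per CPM of Stk36 ranged from 0.221 to 0.29 at 5.5DDC and from 0.267 to 0.416 at 6.5DDC. When the change of the second interval was tested against that of the first, 0% of genes were called, 0 by edgeR's quasi-likelihood test and 0 by DESeq2, and 701 had an unadjusted p under 0.05. For Stk36 this difference was −0.94 in log2 units (SE 0.27, adjusted p = 0.76, edgeR's quasi-likelihood test, Benjamini-Hochberg adjusted).

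Btrc, the adaptor that binds phosphorylated Gli2 and Gli3, was measured at 6.43, 6.17 and 5.67 FPKM at 4.5DDC, 9.4, 8.35 and 8.08 FPKM at 5.5DDC, and 9.57, 9.56 and 11.1 FPKM at 6.5DDC. Each time point lay above the one before without overlap, in FPKM and in CPM. Btrc rose by 0.71 (standard error 0.12, adjusted p = 0.00542, edgeR's quasi-likelihood test, Benjamini-Hochberg adjusted) and passed in each of the alternatives tried.

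Spop, the adaptor that targets Gli2 and Gli3 to Cul3, was the second most abundant of the 10 genes at 4.5DDC and the most abundant by its mean from 5.5DDC. It was measured at 54, 48.4 and 57.8 FPKM at 4.5DDC, 69.2, 61.9 and 64.5 FPKM at 5.5DDC, and 84.3, 80.9 and 75.8 FPKM at 6.5DDC. The time points were again separate. Spop rose by 0.40 (standard error 0.12, adjusted p = 0.0416, edgeR's quasi-likelihood test, Benjamini-Hochberg adjusted), the smallest of the 6 called changes. This call was lost with no filter (adjusted p = 0.0594, edgeR's quasi-likelihood test, Benjamini-Hochberg adjusted), in a fit of the 6 libraries compared (adjusted p = 0.0747) and on leaving out each library in turn other than replicate 1 of 5.5DDC, with adjusted p between 0.0507 without replicate 3 of 6.5DDC and 0.143 without replicate 2 of 4.5DDC. Without replicate 1 of all time points the log2 fold change was 0.36 (adjusted p = 0.0759, edgeR's quasi-likelihood test, Benjamini-Hochberg adjusted).

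**Figure D4:**
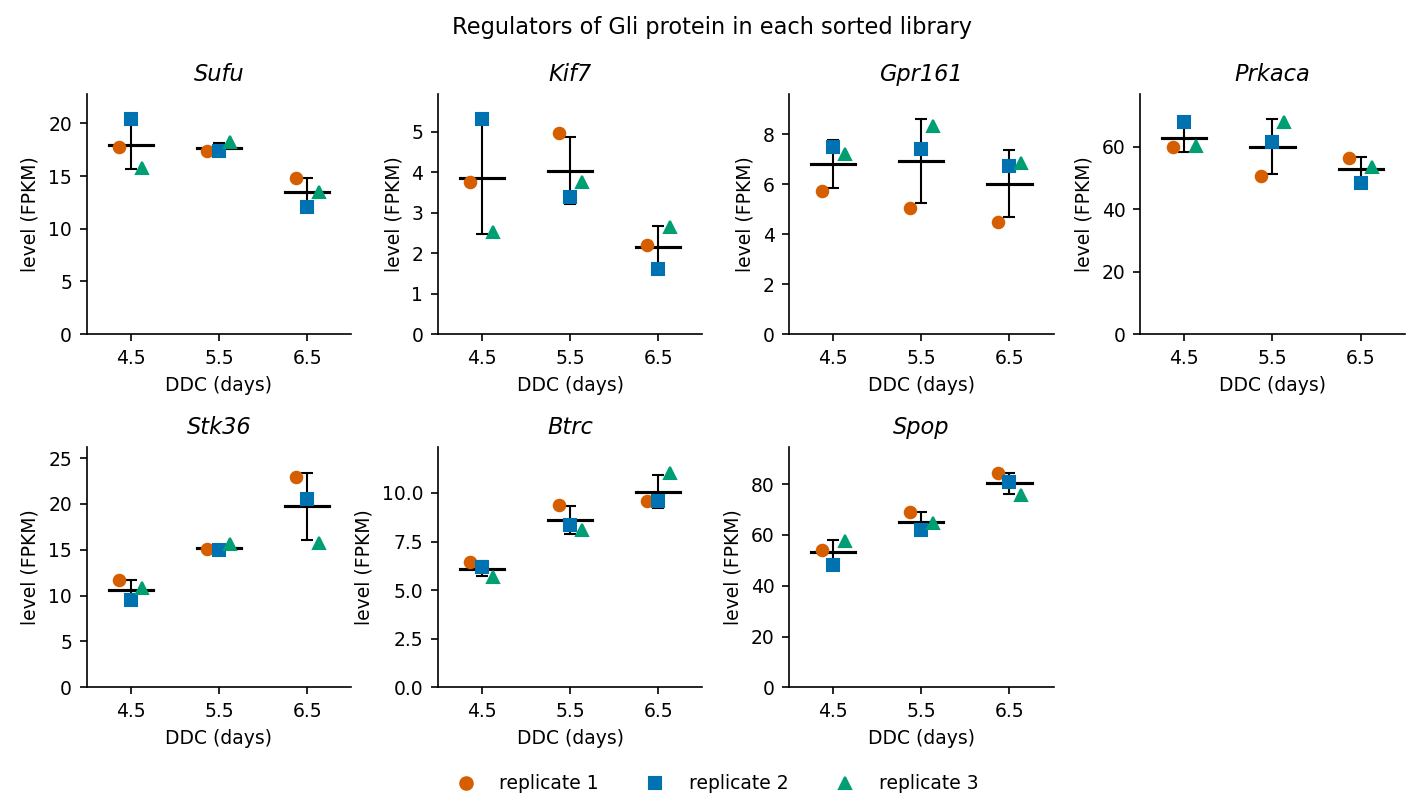
Level in FPKM (y axis) of the 7 regulators at 4.5, 5.5 and 6.5DDC (x axis), with 1 point per library, coloured by replicate, and the mean with SD in black (n = 3). Btrc and Spop are higher at each later time point without overlap, and the libraries of Gpr161 overlap throughout.

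The levels of the 10 genes spanned a wide range, from 0.177 FPKM (mean of Gli2 at 6.5DDC) to 80.3 FPKM (mean of Spop at 6.5DDC). At 4.5DDC, Prkaca (62.6 FPKM) and Spop (53.4) stood above Sufu (18) and Stk36 (10.7), and these neighbours did not overlap. Gpr161, Btrc, Gli1, Kif7 and Gli3 followed with overlapping neighbours, and Gli2 was lowest (1.09). At 6.5DDC the order was Spop (80.3 FPKM), Prkaca (52.8), Stk36 (19.8), Sufu (13.4), Btrc (10.1), Gpr161 (6.03) and Kif7 (2.15), each neighbour without overlap, above the 3 Gli genes. The libraries of Gli1 overlapped with those of Gli3 and of Gli2, while Gli3 and Gli2 did not overlap. In CPM, 3 of 3 Gli genes and 3 of 7 regulators were lower at 6.5DDC without overlap and 3 of 7 regulators were higher, against 17.6% of all genes lower and 17.5% higher without overlap.

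The GC box GGGCGG, on either strand, is in 7 of the 10 promoters found for 8 of the 10 genes in RefSeq (GRCm38.p6), against 32.7% of 32851 promoters of the same 250 bases. The Gli consensus GACCACCCA, on either strand, is in 0 of these 10 windows and in 0.225% of all of them. No promoter entry was matched for Gli1 and Btrc. A match is a description of the letters only. Promoters of a gene that fell (Gli2), a gene that missed the threshold (Sufu) and genes that rose (Spop and Stk36) are printed to show these windows, 250 bases upstream of the start, 5′ to 3′ on the gene's strand, with GC boxes in capitals. They lie at chr1:119053620-119053869 on the minus strand (Gli2), chr19:46396646-46396895 on the plus strand (Sufu), chr11:95413833-95414082 on the plus strand (Spop) and chr1:74601205-74601454 on the plus strand (Stk36), and the last bases of the Spop and Stk36 windows lie inside the gene in GENCODE.
Gli2: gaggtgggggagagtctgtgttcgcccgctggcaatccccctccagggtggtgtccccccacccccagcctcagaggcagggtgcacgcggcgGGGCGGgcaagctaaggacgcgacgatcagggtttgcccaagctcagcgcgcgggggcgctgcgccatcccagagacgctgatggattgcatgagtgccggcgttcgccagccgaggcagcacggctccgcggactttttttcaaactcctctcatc
Sufu: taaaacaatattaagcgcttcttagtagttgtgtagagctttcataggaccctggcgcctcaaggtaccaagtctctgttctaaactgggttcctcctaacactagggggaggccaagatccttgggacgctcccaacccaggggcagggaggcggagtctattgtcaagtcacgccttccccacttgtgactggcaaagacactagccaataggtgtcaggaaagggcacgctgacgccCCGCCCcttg
Spop: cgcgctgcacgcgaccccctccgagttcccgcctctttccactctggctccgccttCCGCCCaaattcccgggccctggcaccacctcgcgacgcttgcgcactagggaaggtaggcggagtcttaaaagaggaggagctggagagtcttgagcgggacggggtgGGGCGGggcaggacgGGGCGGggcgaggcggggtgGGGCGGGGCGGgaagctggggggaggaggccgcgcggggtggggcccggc
Stk36: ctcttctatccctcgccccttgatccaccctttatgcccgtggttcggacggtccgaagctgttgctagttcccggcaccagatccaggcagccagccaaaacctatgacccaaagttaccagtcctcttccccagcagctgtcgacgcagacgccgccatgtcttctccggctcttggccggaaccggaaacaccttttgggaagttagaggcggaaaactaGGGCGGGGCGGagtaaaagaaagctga

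The wider machinery that processes Gli protein was called no more often than genes in general by edgeR. Of 47 other genes in it, 46 were tested, and between 4.5DDC and 6.5DDC 2 fell and 4 rose, with a median log2 fold change of 0.03 against 0.00 for all genes, of which 9.53% were called lower and 9.21% higher. On leaving out a library the median of the 46 ranged from 0.00 to 0.10. DESeq2 called 4 lower and 6 higher, against 1827 and 1854 of all genes, and 15 had an unadjusted p under 0.05, against 35.4% of all genes. In the shorter intervals 0 of the 46 were called by edgeR's quasi-likelihood test, Benjamini-Hochberg adjusted. At an unadjusted p under 0.05, 5 of the 46 passed in the first interval, against 2275 of all 14742 genes. In the second interval 12 of the 46 passed, against 2733 of all 14742. The kinases, 12 genes including the second PKA catalytic gene Prkacb, the GSK3 genes and the CK1 genes, had 0 calls from edgeR's test, 1 from DESeq2 and 2 at an unadjusted p under 0.05. The ubiquitin ligase subunits, 8 genes including Cul1 and Cul3, had 0 calls from edgeR's test and from DESeq2 and 1 at an unadjusted p under 0.05. The median of these subunits was 0.11, with 0.00 to 0.16 on leaving out a library. Among regulatory subunits and inhibitors of PKA 2 of 6 rose, Prkar1a by 0.38 and Prkar2b by 0.68 on the log2 scale, with a median of 0.53, while DESeq2 called 4 higher, 5 had an unadjusted p under 0.05 and leaving out a library gave 0 to 4. In the ciliary cAMP and Smo arm 2 of 20 fell and 2 rose, near the 9.53% and 9.21% of all genes. The median of this arm was −0.11, with −0.23 to 0.01 on leaving out a library. DESeq2 called 3 of its genes lower and 2 higher, and 7 had an unadjusted p under 0.05.

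The 4 called genes of that arm have known places in the cilium. Evc, at the base of the cilium with Smo, fell from 7.34 ± 0.679 to 2.98 ± 0.083 FPKM (SD, n = 3), a log2 fold change of −0.94 (adjusted p = 0.00611, edgeR's quasi-likelihood test, Benjamini-Hochberg adjusted). Ankmy2, which brings adenylyl cyclases to the cilium, rose from 10.1 ± 0.559 to 18.3 ± 2.1 FPKM. Kif27, the closest relative of Kif7, rose from 1.59 ± 0.806 to 5.51 ± 1.2 FPKM. Adcy3, a ciliary adenylyl cyclase, fell by 1.09 on counts, while its FPKM was 1.54 ± 0.602 and 1.48 ± 0.49 at the same time points. Smo itself was not called (log2 fold change −0.38, adjusted p = 0.155, edgeR's quasi-likelihood test, Benjamini-Hochberg adjusted).

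Some members have a paralogue on the list, and these pairs, chosen after their values were seen, are given as a description. Fbxw11, the paralogue of Btrc, was measured at 42.5 ± 3.39 FPKM at 4.5DDC and 45.7 ± 1.19 at 6.5DDC (SD, n = 3), well above Btrc, and the mean log2 ratio of Btrc to Fbxw11 went from −2.80 to −2.19. The ratio of Kif7 to Kif27 went from 1.36 to −1.36 on the log2 scale. The log2 ratio of Spop to Spopl spanned 1.71 to 3.48 across the libraries of 6.5DDC and overlapped with those of 4.5DDC. The mean log2 ratio of Prkaca to Prkacb was 1.06 at 4.5DDC and 0.72 at 6.5DDC, with overlap.

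**Figure D5:**
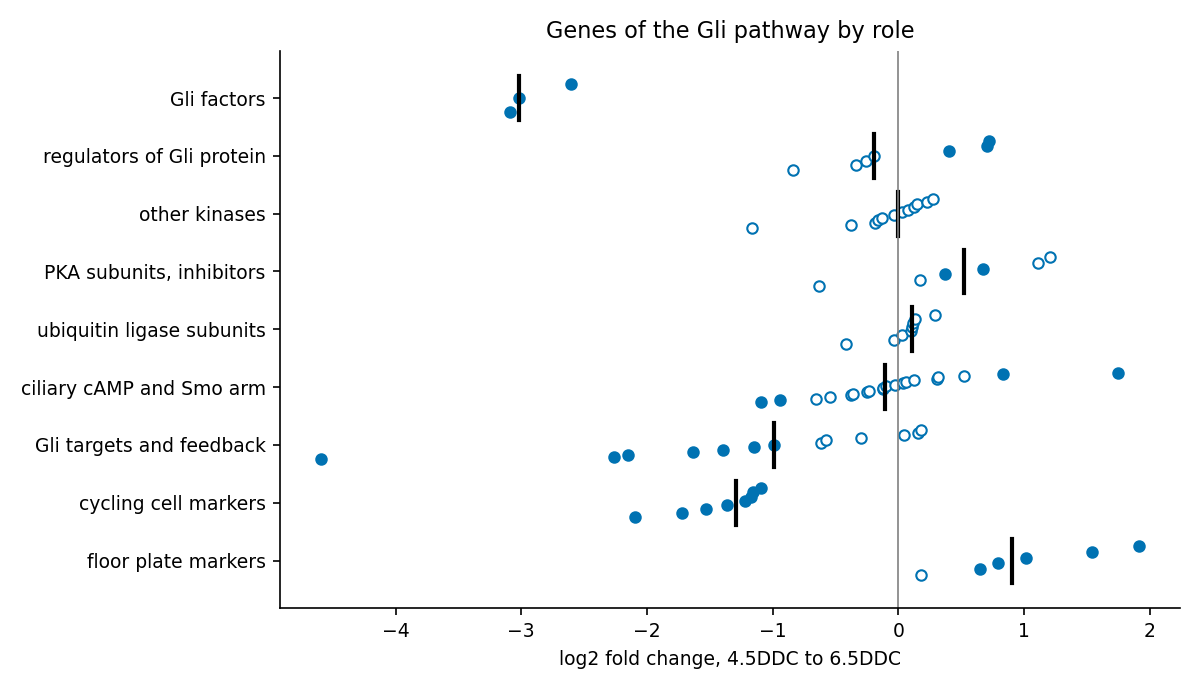
Log2 fold change from 4.5DDC to 6.5DDC (x axis) of each tested gene by role, with 1 point per gene and the median of the group as a black line. Filled points passed an adjusted p of 0.05. The Gli factors lie furthest left as a group, the other kinases are centred at 0 with no filled point, and the cycling cell markers are all filled below 0.

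Target and feedback genes of the pathway moved mostly in the direction of the Gli genes. Of 13, 7 fell and 0 rose, against 9.53% lower and 9.21% higher of all genes, with a median log2 fold change of −0.99, and the number lower ranged from 3 to 8 over the alternatives. Ptch1, a receptor gene induced by Shh, fell by 0.99 on the log2 scale. Nkx2-9, a ventral homeobox gene, fell, to 1, 3 and 10 counts in the libraries of 6.5DDC, too few for the size of the fall to be precise. Nkx6-1, Nkx6-2, Ccnd1 and Mycn fell as well, and Nkx2-2, Foxa2 and Cdon had log2 fold changes of 0.16, 0.18 and 0.04 that did not pass. Of the Gli-related zinc finger genes 0 of 7 tested were called by edgeR's test, 1 by DESeq2 and 1 at an unadjusted p under 0.05. Their log2 fold changes lay between −1.39 and 0.94, with a median of −0.65. Over the alternatives this median ranged from −0.86 to −0.07, with 0 to 2 called lower and 0 to 1 higher.

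Markers of cell state and cell type moved over the same span, in which 9.53% of all genes were called lower and 9.21% higher. All 8 cycling cell markers fell (6 to 8 over the alternatives), with a median log2 fold change of −1.29 and a summed level of 1143 ± 135 FPKM at 4.5DDC, 790 ± 104 at 5.5DDC and 486 ± 150 at 6.5DDC (SD, n = 3). Floor plate genes rose in 5 of 6 (2 to 6 over the alternatives), with Shh, Ntn1, Spon1 and Ferd3l among them and a summed level of 686 ± 179, 1306 ± 296 and 1361 ± 64.2 FPKM, Ntn1 or Spon1 being the most abundant. Neuron markers summed to between 170 and 329 FPKM at 4.5DDC and between 254 and 630 at 6.5DDC, with Map2 called higher and Isl1 lower of 7 tested, and 1 to 4 higher over the alternatives. Progenitor markers summed to 2273 ± 238 and 2970 ± 75.5 FPKM, with Prom1 called higher and Sox3 lower of 8. Those of the Nkx2.2 lineage summed to 116 ± 35.7 and 60.3 ± 25.4 FPKM, with 3 of 5 lower (1 to 4 over the alternatives). Nkx2-2, Nkx2-9, Nkx6-1 and Nkx6-2 of this lineage list are also among the target and feedback genes. Foxa2 is on the floor plate and target lists, so these lists are not independent of one another.

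Pluripotent cell genes summed to at most 6.49 FPKM in any library, with Pou5f1 at 0 counts in 6 of 9 libraries and 0 of 2 tested called by edgeR, by DESeq2 or at an unadjusted p under 0.05. Dorsal neural tube genes summed to at most 1.92 FPKM, and 0 of 2 tested were called by edgeR, by DESeq2 or at an unadjusted p under 0.05. Crest and mesenchyme genes summed to 20.5 ± 9.4 FPKM at 4.5DDC and 66 ± 28.4 at 6.5DDC, with Sox10 or Foxd3 at 0 counts in each library. All 6 tested had a log2 fold change above 0, with a median of 1.32. Twist1 alone was called higher, against 0 to 5 over the alternatives, and 4 had an unadjusted p under 0.05. Endoderm genes summed to 29.9 ± 12.9 and 43.6 ± 15.8 FPKM, of which Foxa1 made up 27.3 and 38.2. Of the 5 tested 0 were called by edgeR, by DESeq2 or at an unadjusted p under 0.05, while 4 had a log2 fold change above 0. The median was 1.35, with 0.17 to 2.18 on leaving out a library, and 0 to 4 were called higher over the alternatives. The fall of the Gli genes moved with the fall of cycling markers and the rise of floor plate genes, and their part in the result was not tested. In sorted bulk RNA, fewer cells with Gli transcripts and less transcript per cell cannot be told apart.

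Genes with courses most like the Gli genes were found among 12769 genes averaging 1 FPKM or more at the first time point, which leaves out genes that started low, by the root mean square difference of log2 CPM over the 9 libraries, each gene centred on its mean. For Gli1 the nearest included Crabp1 (0.284), Phox2a (0.484), Nkx2-9 (0.507) and Rasl11a (0.576). For Gli2 they were Lmo1 (0.412), Gm6091 (0.47), Mdk-ps1 (0.476), Gm12501 (0.479) and Tubb4b-ps1 (0.488), of which those with -ps in the name are pseudogenes whose reads may belong to parent copies. For Gli3 they were Pole (0.325), Nqo1 (0.348), Cenph (0.352), Hells (0.354) and Uhrf1 (0.356). Pole and Cenph are a DNA polymerase subunit and a kinetochore gene, while Crabp1 is a retinoic acid binding protein. The Gli genes lay at 0.735 for Gli1 and Gli2, 0.753 for Gli2 and Gli3 and 0.894 for Gli1 and Gli3. The genes named above are the smallest distances of a search, so these larger values do not set the Gli genes apart. Among 14741 genes ranked by closeness to Gli1, Gli2 was at rank 42 and Gli3 at 191. By closeness to Gli2, Gli1 was at rank 142 and Gli3 at 171. By closeness to Gli3, Gli2 was at rank 559 and Gli1 at 1455.

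All positions are on GRCm38 from GENCODE M21, and each gene is annotated as protein coding. Gli1 lies at chr10:127329882-127341974 on the minus strand, Gli2 at chr1:118834132-119053619 on the minus strand and Gli3 at chr13:15463235-15730026 on the plus strand. Genes on the opposite strand cover 6.55% of the exonic bases of Gli1, 1.96% of Gli3 and 1.39% of Btrc, while Gli2, Sufu, Spop, Stk36, Prkaca and Gpr161 have none. Arhgap9, the measured partner of Gli1, held a mean of at most 2 counts per library at any time point.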

How the data were processed

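RNA from prominin-1 sorted NSCs at 4.5DDC, 5.5DDC and 6.5DDC was analysed in 3 libraries per time point. The authors mapped reads to GRCm38 with TopHat 2.0.4 and deposited counts per gene from HTSeq 0.6.1 without normalization. For 98 of 38197 symbols the deposited table holds fractions, like expected or estimated counts, where whole counts had been assumed, so all were rounded. The 10 genes described had whole counts. The authors made the deposited FPKM with Cufflinks 2.1.1. Their voom table was not used.

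Counts were tested with edgeR 4.0.16 (R 4.3.3) by the quasi-likelihood test after filterByExpr and TMM, in 1 fit of 9 libraries with time as factor, with Benjamini-Hochberg adjustment over 14742 genes at 0.05. limma 3.58.1 and DESeq2 1.42.0 were alternatives, and the procedure was tested on simulated data. Ratios used exact permutation tests. Members and lists were chosen with earlier results of these data known. The genes named are the 10 members, the genes of the lists and the 5 genes most like each Gli gene. Tubb3 was not analysed here. Some genes chosen in this way are not reported here.

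Replicate numbers come from the labels. Deviations from time point means correlated between same-numbered libraries at 0.743, 0.386 and 0.452 (4.5DDC with 5.5DDC) and 0.454, 0.367 and 0.197 (5.5DDC with 6.5DDC), so numbers were taken to pair adjacent time points. Different numbers among replicates 2 and 3 correlated as well, at 0.291 and 0.39 and at 0.225 and 0.405, so only replicate 1 was set apart by its number. For 4.5DDC with 6.5DDC same-numbered libraries gave 0.383, −0.0396 and −0.215, which did not pair replicates 2 and 3. Different numbers among replicates 2 and 3 gave 0.46 and 0.487 there. Deviations from a mean of 3 libraries sum to 0, so an outlying replicate 1 by itself raises the correlations among replicates 2 and 3. A floor of 3 counts is between 0.118 and 0.271 CPM without the TMM factor and covers counting error only.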

Additional observations from a re-analysis of the deposited data

How the results depend on the processing

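Alternatives were other scalings, filters and tools, fits of the 6 libraries compared, a replicate block and each library left out in turn. Fits without replicate 1 and with a block for replicate 1 were added after seeing the data. From 4.5DDC to 6.5DDC the falls of Gli1 and Gli3 and the rise of Btrc passed in each alternative, and the fall of Gli2 in each on counts, since its FPKM was too low for the filter of the FPKM fits. The cause of the differences given here was not tested.

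Genes called from 4.5DDC to 5.5DDC numbered 11, against 495 with DESeq2, 25 with no filter, 212 with the replicate block, 1 in 6 libraries, 485 without replicate 1, 484 with its block and 1 to 28 on leaving out a library. From 5.5DDC to 6.5DDC they numbered 33, against 55 with library totals, 671 with DESeq2, 78 with no filter, 195 with the replicate block, 0 in 6 libraries, 5 and 4 on FPKM with pseudocounts of 1 and 0.1, 728 without replicate 1, 634 with its block and 0 to 196 on leaving out a library. From 4.5DDC to 6.5DDC they numbered 2763, against 4586 without replicate 1, 4382 with its block and 1125 (without replicate 2 of 6.5DDC) to 3132 on leaving out a library. Lower and higher calls from 4.5DDC to 5.5DDC were 2 and 9, against 204 and 291 with DESeq2, and from 5.5DDC to 6.5DDC 29 and 4, against 424 and 247 with DESeq2, 368 and 360 without replicate 1 and 277 and 357 with its block. The interval difference gave 3 and 1 calls on FPKM with pseudocounts of 1 and 0.1, and 0 to 2 on leaving out a library.

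Members called lower and higher from 4.5DDC to 5.5DDC were 2 and 2 with DESeq2, 1 and 1 with the replicate block, 2 and 1 with the block for replicate 1, and 0 and 1 without replicate 1, and leaving out a library gave 0 to 1 lower and 0 higher. From 5.5DDC to 6.5DDC, 1 was lower with DESeq2 and with the block for replicate 1. From 4.5DDC to 6.5DDC, 1 to 3 were higher on leaving out a library, the 1 without replicate 2 of 4.5DDC. The replicate block changed the calls of Gli3, Stk36 and Spop (4.5DDC to 6.5DDC, adjusted p = 0.0559, edgeR's quasi-likelihood test, Benjamini-Hochberg adjusted) and of no other member. Without replicate 1 the ratios to Sufu changed by −2.43, −2.25 and −2.30 for Gli1, Gli2 and Gli3, and leaving out a library gave −3.12 to −2.03, −2.59 to −1.78 and −2.32 to −1.65.

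Some log2 fold changes near 0 changed sign, none of them called. From 4.5DDC to 5.5DDC, Sufu was −0.017 and −0.018 on FPKM, −0.042 without replicate 1 and −0.047 to 0.098 on leaving out a library. Kif7 was −0.15 without replicate 1 and −0.18 to 0.30 on leaving out a library, and Prkaca was −0.21 to 0.0083. Gpr161 was 0.0058 and 0.0040 on FPKM, 0.019 without replicate 1 and −0.20 to 0.14 on leaving out a library. From 5.5DDC to 6.5DDC, Stk36 was 0.34 and 0.36 on FPKM, 0.0022 without replicate 1 and −0.19 to 0.0091 on leaving out a library, and Gpr161 was −0.34 to 0.0069. Gli2 had 9 to 23 counts per library at 6.5DDC, which limits its precision.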
